A study of Sus scrofa with 12 samples.

Results

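The NADPH oxidase subunits examined here were the genes whose name in the deposited table was CYBA, NCF1, NCF4, RAC2, NOX4 or DUOX2. Of the 7 genes listed for the family, 6 were analysed among the 20674 genes of the table, and CYBB was not analysed here. All 6 passed the filter on low counts, which left 15351 genes. The RNA came from endometrium, the inner lining of the uterus, of Landrace × Yorkshire sows that received their diet from breeding through a gestation of 114 days. L − N sows, the basal control, received a low-fiber (LF) diet with 3.73% crude fiber, and L + N sows received the same diet with 0.05% N-carbamylglutamate (NCG), a feed additive that activates the first enzyme of the urea cycle. H − N sows received a high-fiber (HF) diet with 7.46% crude fiber, and H + N sows received that diet with 0.05% NCG. Corn gave way to soybean bran and beet pulp in the HF diets, so more fiber and other feed ingredients cannot be told apart. Each group had 3 libraries, and the labels do not say that these came from separate sows, so p-values measure the spread between libraries only.

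NADPH oxidases are membrane enzymes that pass electrons from NADPH across the membrane to oxygen, which yields superoxide or hydrogen peroxide. The phagocyte oxidase, known from neutrophils and macrophages, is built from a membrane pair (CYBB and CYBA) to which cytosolic subunits and a small GTPase are recruited when the cell is stimulated. NOX4 also pairs with CYBA but is known to work without the cytosolic subunits, whereas DUOX2 is a calcium-regulated oxidase of epithelial surfaces that needs a maturation factor. Macrophages, stroma and epithelium all occur in the endometrium at the end of gestation, and the libraries were made from the whole tissue.

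The 12 libraries held between 14369781 and 19309724 counted reads. On the first principal component of all genes (26.7% of the variance), L − N replicates 2 and 3 lay at -67.2 and -65.5 and L − N replicate 1 at -22.6, while the other 9 libraries lay between 1.06 and 28.2. L − N replicate 1 therefore stood apart from the other libraries of its own group, and the values without it are given where it changed a call. Marker genes of the tissue were viewed in CPM, the read count scaled to the library total after adjustment of the totals by the trimmed mean of M values (TMM). Summed levels were 1046 to 2376 CPM for 9 epithelial markers and 21013 to 50429 CPM for 9 stromal markers, and all of these markers had counts in every library. Smooth muscle markers, 5 in number, summed to 789 to 5052 CPM, with the highest value in L − N replicate 1. No other tissue was at hand for comparison, so these sums do not test the tissue label.

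The 6 genes lie on 5 chromosomes of the pig assembly Sscrofa11.1. CYBA (gene ID 397507) was placed on the plus strand of chromosome 6 at 1015212 to 1021422, and NCF1 (gene ID 100134857) on the plus strand of chromosome 3 at 11820367 to 11834394. RAC2 (gene ID 100621675) lies on the plus strand of chromosome 5 at 10553986 to 10571082, and NCF4 (gene ID 100152055) lies on the minus strand of the same chromosome at 10876147 to 10994002. NOX4 (gene ID 100523323) was placed on the minus strand of chromosome 9 at 22622105 to 22776691, and DUOX2 (gene ID 397060) on the plus strand of chromosome 1 at 126620468 to 126641406. DUOXA2, the maturation factor of DUOX2, begins 109 bases away on the opposite strand. The whole PVALB gene lies inside the NCF4 gene on the opposite strand. It had 21 to 169 counts per library, against 206 to 919 for NCF4, and its level was lowest (1.32 and 1.68 CPM) in L − N replicates 2 and 3, where NCF4 was highest.

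Per length of transcript, the membrane subunit was the most abundant member. Over the 12 libraries the FPKM (fragments scaled by gene length and library total) of CYBA was 57.4 ± 11.5 (SD), followed by NCF1 at 10.6 ± 4.66, NCF4 at 5.61 ± 2.82, RAC2 at 5.22 ± 1.59, DUOX2 at 5.09 ± 1.97 and NOX4 at 3.36 ± 1.501. CYBA exceeded NCF1, and NCF1 exceeded NCF4, in 12 of 12 libraries. NCF4 exceeded RAC2 in 7 libraries and RAC2 exceeded DUOX2 in 5, so these neighbours in the order did not differ beyond their spread, whereas DUOX2 exceeded NOX4 in 10. The members differed more in how far they ranged. The highest CPM was 1.90 times the lowest for CYBA, 2.94 times for RAC2, 3.18 times for NCF1, 4.34 times for NCF4, 4.73 times for NOX4 and 6.79 times for DUOX2.

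Without NCG, the HF diet went with lower RNA of NOX4 and NCF4, while the other 4 members did not pass the test. This comparison of H − N with L − N asks what the HF diet changed when no NCG was given. NOX4 fell to 15.0 ± 3.71 CPM (SD, n = 3) in H − N from 52.2 ± 1.72 CPM in L − N, and NCF4 fell to 15.0 ± 0.839 CPM from 47.6 ± 19.7 CPM. These 2 of 6 members were differentially expressed, meaning an adjusted p below 0.05 and a log2 fold change beyond 1 in size. In the same comparison 2.01% of all genes tested were differentially expressed and lower, and 2.91% in either direction. For both genes every H − N library lay below every L − N library, a separation that 12.7% of all genes showed with the first group lower. The median log2 fold change of the 6 members was -0.72, beside 0.03 for all genes, and all 6 estimates were negative.

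**Figure D1:**
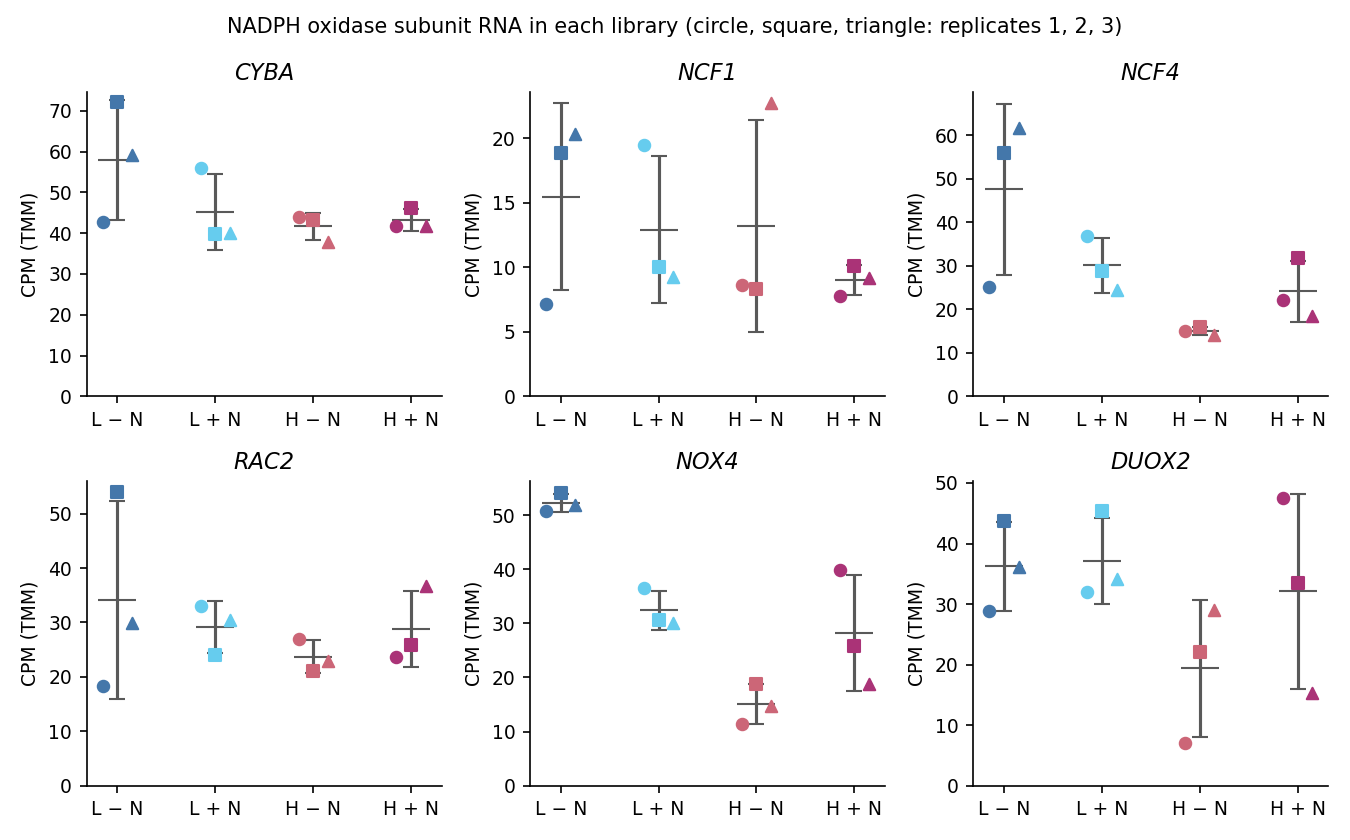
TMM-scaled CPM (vertical axis, linear, from 0) of each subunit in the 12 libraries by diet group. Circles, squares and triangles are replicates 1, 2 and 3, the wide line is the group mean and the bar is 1 SD. NOX4 lies between 11.5 and 18.9 CPM in H − N and between 50.7 and 54.1 CPM in L − N, and NCF4 in L − N runs from 25.1 to 61.7 CPM.

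CYBA encodes p22phox, the membrane partner that the phagocyte oxidase and NOX4 share. In L − N it stood at 42.7, 72.2 and 59.0 CPM in replicates 1, 2 and 3, and in L + N at 56.0, 39.8 and 40.0 CPM. In H − N it stood at 44.0, 43.2 and 37.9 CPM and in H + N at 41.7, 46.2 and 41.8 CPM. The 2 highest libraries were both L − N, and the third L − N library lay among those of the other groups, so the groups overlapped in every comparison. The estimate for H − N against L − N was -0.47 on the log2 scale, with a 95% interval from -0.89 to -0.06 and a Benjamini-Hochberg adjusted p of 0.155 by the quasi-likelihood test of edgeR. For H + N against L − N it was -0.42 (-0.84 to -0.01), with an adjusted p of 0.177. These intervals lie within 1 log2 unit of 0, so a change beyond the fold threshold was outside them.

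NCF1 encodes p47phox, the organiser that brings the cytosolic subunits to the membrane. Its level was 7.13, 18.9 and 20.4 CPM in L − N, 19.5, 10.01 and 9.22 CPM in L + N, 8.65, 8.32 and 22.7 CPM in H − N, and 7.78, 10.1 and 9.20 CPM in H + N. Each group other than H + N held at least 1 library above 19 CPM and 1 below 10 CPM. The log2 fold changes were -0.23 (95% interval -1.26 to 0.81) in H − N, -0.26 (-1.29 to 0.78) in L + N and -0.77 (-1.82 to 0.27) in H + N against L − N. The edgeR adjusted p-values (Benjamini-Hochberg) were 0.811, 0.764 and 0.316. These intervals hold changes of more than 1 log2 unit, so a difference of that size was not excluded with these libraries. Of NCF1, NCF4 and RAC2, NCF1 had the widest variation between replicates, with a biological coefficient of variation of 0.406 beside 0.271 for NCF4 and 0.284 for RAC2.

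NCF4 encodes p40phox, which binds a lipid of the phagosome membrane and aids the oxidase there. It was measured at 25.1, 55.9 and 61.7 CPM in L − N and at 36.9, 28.8 and 24.5 CPM in L + N. In H − N it was at 14.9, 15.9 and 14.2 CPM, and in H + N at 22.1, 31.9 and 18.4 CPM. All H − N libraries lay below all other libraries, and L − N replicate 1 lay within the range of L + N and H + N. The share of all genes with H − N below all other libraries was not computed. In H − N the log2 fold change against L − N was -1.66 (SE 0.31, 95% interval -2.35 to -0.97), a level 3.17 times lower, with an adjusted p of 0.0232 by edgeR. This call was lost without L − N replicate 2 (adjusted p = 0.0609), L − N replicate 3 (0.0975) or any of the 3 H − N libraries (0.0740, 0.0508 and 0.0642 for replicates 1, 2 and 3), and with edgeR on these 2 groups alone (0.0981), while the estimate stayed between -1.97 and -1.43. Without L − N replicate 1 it was -1.97, with an edgeR adjusted p of 0.000716.

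RAC2 encodes the GTPase of blood cells that switches the phagocyte oxidase on. It stood at 18.4, 54.0 and 29.96 CPM in L − N, 33.1, 23.9 and 30.5 CPM in L + N, 27.05, 21.2 and 22.8 CPM in H − N, and 23.6, 25.9 and 36.7 CPM in H + N. The lowest and the highest of the 12 libraries were both L − N, and no pair of groups was separated. The log2 fold changes against L − N were -0.53 (95% interval -1.24 to 0.18) in H − N, -0.23 (-0.93 to 0.48) in L + N and -0.25 (-0.96 to 0.46) in H + N. None passed the test in edgeR, with adjusted p-values of 0.341, 0.689 and 0.664.

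NOX4 encodes an oxidase that mainly releases hydrogen peroxide and is set largely by how much of it a cell makes. Its level was 50.7, 54.1 and 51.8 CPM in L − N, 36.6, 30.6 and 30.1 CPM in L + N, 11.5, 18.9 and 14.8 CPM in H − N, and 39.9, 25.9 and 18.8 CPM in H + N. The 3 L − N libraries were the highest of the 12 and lay close together, although they lay apart for NCF4 and on the first principal component. How many of all genes had L − N above all other libraries was not computed. In H − N the log2 fold change against L − N was -1.80 (SE 0.26, 95% interval -2.36 to -1.24), a level 3.48 times lower, with an adjusted p of 0.0162 by edgeR. NOX4 stood at rank 13 by p-value among the genes tested in this comparison, and NCF4 at rank 156. The NOX4 call was lost without L − N replicate 3 (adjusted p = 0.0685) or H − N replicate 1 (0.0552) and with edgeR on these 2 groups alone (0.0688), with estimates between -1.99 and -1.63. Without L − N replicate 1 it was -1.82, with an edgeR adjusted p of 0.00311. Without H − N replicate 1 no gene was differentially expressed in this comparison, and without L − N replicate 3 there were 6, down from 446.

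**Figure D2:**
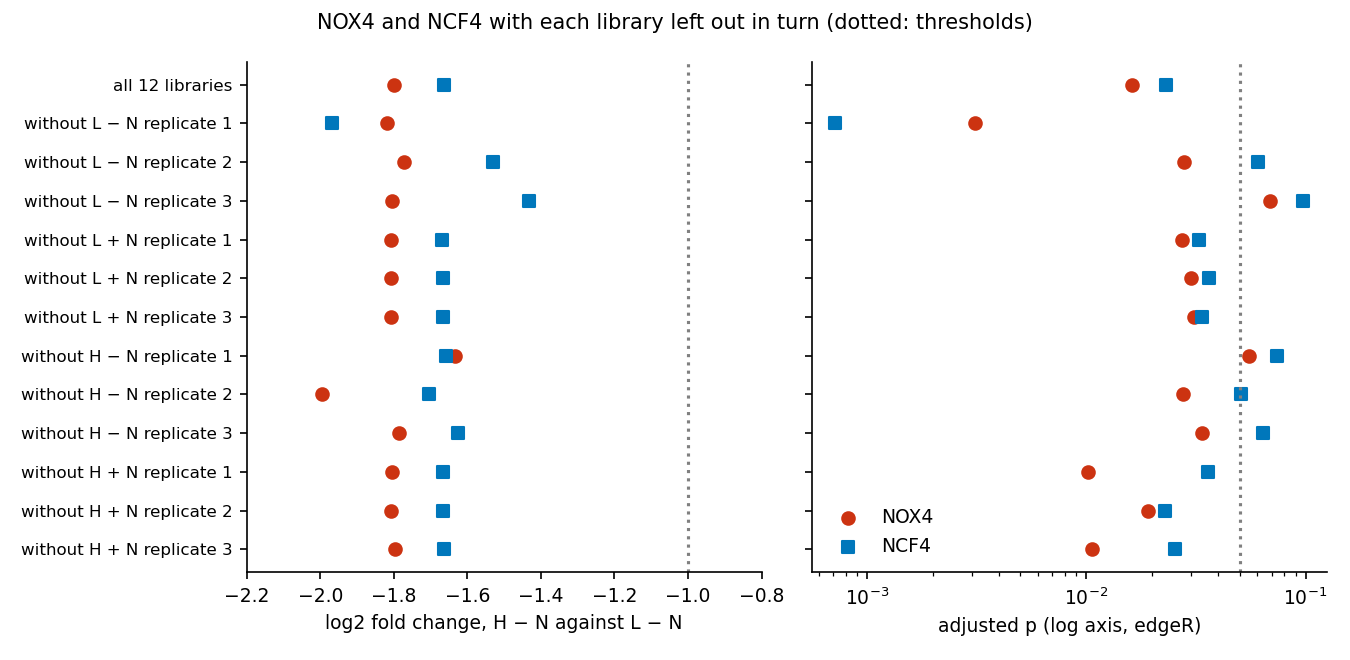
Log2 fold change (left) and edgeR adjusted p on a log axis (right) of NOX4 (circles) and NCF4 (squares) for H − N against L − N, with all 12 libraries and with each left out in turn. Dotted lines mark the thresholds at -1 and 0.05. Every estimate is below -1, and the adjusted p passes 0.05 in 2 of the 12 reduced fits for NOX4 and in 5 for NCF4.

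DUOX2 encodes an oxidase that supplies hydrogen peroxide at epithelial surfaces. It was at 28.9, 43.6 and 36.1 CPM in L − N, 31.98, 45.3 and 34.1 CPM in L + N, 6.99, 22.05 and 29.0 CPM in H − N, and 47.5, 33.4 and 15.3 CPM in H + N. The lowest library was H − N replicate 1 and the highest was H + N replicate 1. The groups overlapped in every comparison made here. In H − N the log2 fold change against L − N was -0.91 (95% interval -1.94 to 0.13), with an adjusted p of 0.263 by edgeR. Against L − N the estimates were 0.03 (-0.98 to 1.05) in L + N and -0.18 (-1.20 to 0.84) in H + N.

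With NCG on the LF diet, L + N against L − N, no member was differentially expressed, beside 3.99% of all genes and 0.671% in the lower direction. NOX4 was the only one of the 6 members whose groups did not overlap, with 30.1 to 36.6 CPM in L + N below 50.7 to 54.1 CPM in L − N. Such a separation with the first group lower held for 17.2% of all genes. The log2 fold change of NOX4 was -0.69 (SE 0.25, 95% interval -1.23 to -0.14), inside the fold threshold, with an adjusted p of 0.101 by edgeR. Over 7 other settings, by edgeR or DESeq2, its adjusted p ran from 3.66e-05 to 0.122. The estimate stayed inside the fold threshold in all of them, between -0.70 and -0.65. NCF4 had an estimate of -0.66 (-1.33 to 0.01) and an adjusted p of 0.186. The median of the 6 members was -0.31, beside -0.02 for all genes.

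With fiber and NCG together, H + N against L − N, no member was differentially expressed, beside 3.58% of all genes and 1.28% in the lower direction. NOX4 lay at 18.8 to 39.9 CPM in H + N, below every L − N library, a separation that 12.7% of all genes showed with the first group lower. Its log2 fold change was -0.89 (SE 0.25, 95% interval -1.44 to -0.35), with an adjusted p of 0.0507 by edgeR. The estimate for NCF4 was -0.98 (SE 0.31, -1.65 to -0.30), with an adjusted p of 0.0700. Over 7 other settings, by edgeR or DESeq2, adjusted p ran from 0.00864 to 0.117 for NOX4 and from 0.0194 to 0.165 for NCF4. The estimates stayed inside the fold threshold in all of these, at -0.92 to -0.87 for NOX4 and -0.99 to -0.94 for NCF4. Without L − N replicate 1 the NCF4 estimate was -1.28 and passed, with an edgeR adjusted p of 0.00827, among 948 genes (6.09%). The median of the 6 members was -0.60, beside 0.02 for all genes. The comparisons with L − N share its 3 libraries, so their values are given side by side and not as separate evidence.

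Within the HF diet, H + N against H − N, the estimates for NOX4 and NCF4 were positive and did not pass the test. No gene was differentially expressed in edgeR (0% of 15351), where 1331 genes had an unadjusted p below 0.05 and DESeq2 gave 25. NCF4 lay at 18.4 to 31.9 CPM in H + N, above the 14.2 to 15.9 CPM of H − N, a separation that 7.82% of all genes showed with the first group higher. Its log2 fold change was 0.69 (SE 0.31, 95% interval 0.01 to 1.37), with an adjusted p of 0.574. The estimate for NOX4 was 0.91 (SE 0.25, 0.36 to 1.46), with an adjusted p of 0.451 by edgeR, and its groups touched at 18.8 CPM in H + N and 18.9 CPM in H − N. DUOX2 had an estimate of 0.73 (-0.30 to 1.77).

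Within the diets with NCG, H + N against L + N, no member passed the test. No gene was differentially expressed (0% of 15351) in edgeR, with 719 genes at an unadjusted p below 0.05 and 2 genes by DESeq2. The estimates ranged from -0.52 for NCF1 to -0.02 for RAC2, and every member's groups overlapped, as against 11% of all genes whose groups did not. For NOX4 the log2 fold change was -0.20 (95% interval -0.75 to 0.34), and for NCF4 it was -0.32 (-0.99 to 0.35). The intervals of NCF1 (-1.56 to 0.52) and DUOX2 (-1.23 to 0.81) held changes of more than 1 log2 unit. The HF diet had an estimate of -1.80 for NOX4 without NCG and -0.20 with it. The difference between them, the interaction of fiber and NCG, was 1.60 (SE 0.35, 0.82 to 2.37), with an edgeR adjusted p of 0.253. For NCF4 the interaction was 1.35 (SE 0.44, 0.39 to 2.30), with an adjusted p of 0.287. No gene passed the interaction test in edgeR (0%), although 1967 genes had an unadjusted p below 0.05, and DESeq2 gave 184 genes with NOX4 among them at an estimate of 1.61 and an adjusted p of 0.00611. Without L − N replicate 1, NCF4 passed in edgeR at 1.65 with an adjusted p of 0.0259, among 346 genes (2.22%). A different response to the HF diet with and without NCG was therefore not established for either gene.

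Averaged over NCG, both HF groups against both LF groups, NOX4 and NCF4 were about 2 times lower, with adjusted p-values in edgeR just above the threshold. These averages join unlike estimates for the HF diet without and with NCG, -1.80 and -0.20 for NOX4 and -1.66 and -0.32 for NCF4. The log2 fold change of NOX4 was -1.002 (SE 0.18, 95% interval -1.39 to -0.61), with an adjusted p of 0.0576 by edgeR. For NCF4 it was -0.99 (SE 0.22, -1.47 to -0.51), inside the fold threshold, with an adjusted p of 0.0711 by edgeR. None of the 6 members was differentially expressed, beside 0.0261% of all genes, and all 6 members overlapped between the pooled diets, where 0.886% of all genes did not. DESeq2 called both genes among 290 (1.89%), with adjusted p-values of 4.21e-05 for NOX4 and 0.00133 for NCF4. Without L − N replicate 1 edgeR also called both, with adjusted p-values of 0.0131 and 0.00353, in a fit where 331 genes (2.13%) passed in place of 4, and without H + N replicate 1 it called NOX4 (-1.19, adjusted p = 0.0340) among 3 genes. The other members had estimates between -0.56 (DUOX2) and -0.27 (CYBA).

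Averaged over fiber, NCG against no NCG, no member was differentially expressed, beside 1.8% of all genes, and all members overlapped, where 3.99% of all genes did not. The estimates ran from -0.40 for NCF1 (95% interval -1.14 to 0.33) to 0.38 for DUOX2 (-0.34 to 1.11). For NOX4 it was 0.11 (-0.27 to 0.50) and for NCF4 it was 0.01 (-0.46 to 0.49), so neither interval held a change of 1 log2 unit.

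**Figure D3:**
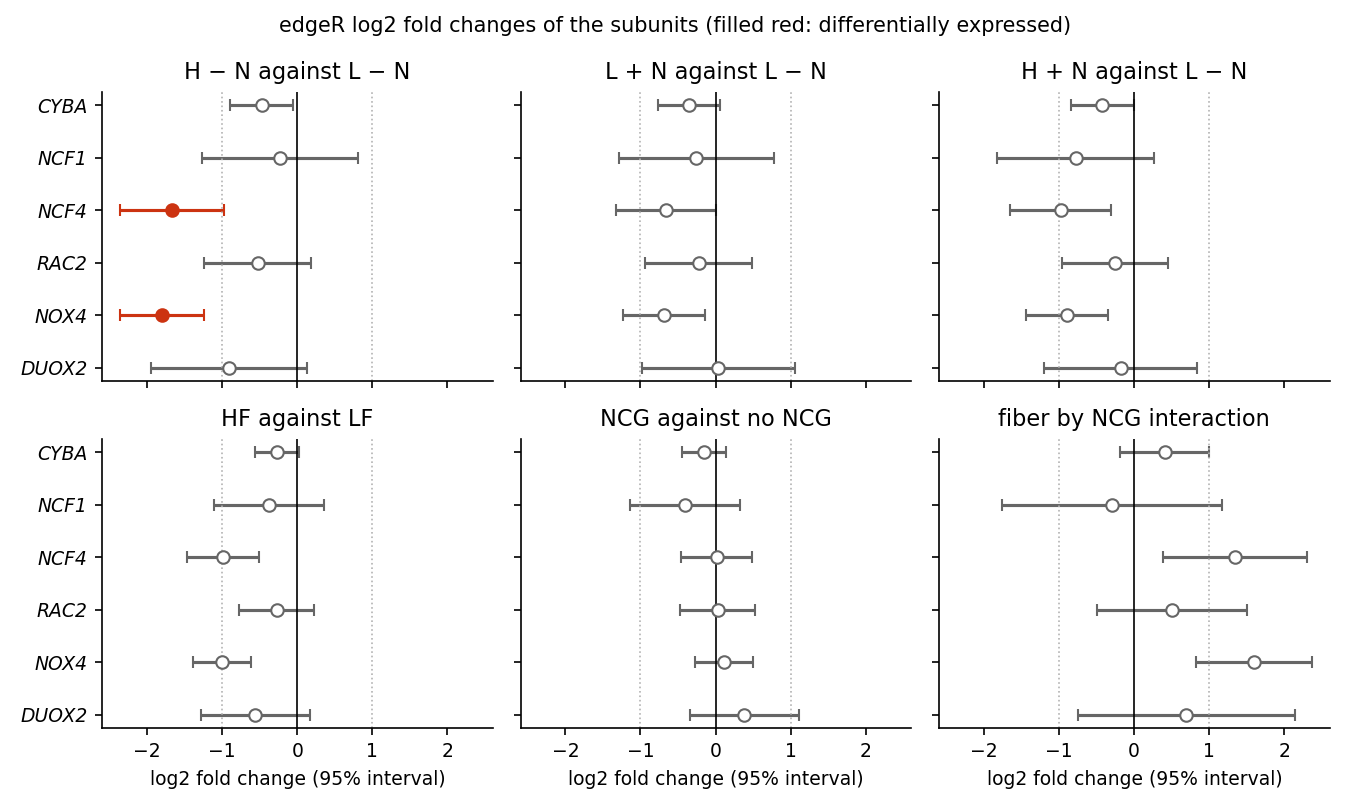
Log2 fold changes of the 6 subunits (points) with 95% intervals (bars) in 6 of the comparisons, fitted by edgeR over all 12 libraries. Filled red points are differentially expressed, the solid line is 0 and dotted lines are at -1 and 1. Only NCF4 at -1.66 and NOX4 at -1.80 in H − N against L − N are filled.

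Markers of macrophages moved with several of these values, and other cell type markers moved as well. Of 11 macrophage markers, 8 were differentially expressed and lower in H − N against L − N, 2 in L + N and 4 in H + N, and all 11 estimates were negative in each. Among all genes tested, 2.01%, 0.671% and 1.28% were differentially expressed and lower in these comparisons. Negative estimates were found in 46.5%, 52.3% and 48.3% of all genes. The median log2 fold change of the macrophage markers was -1.59 in H − N, -0.93 in L + N and -1.06 in H + N. Their summed level was 1415, 3574 and 3695 CPM in L − N replicates 1, 2 and 3, 1202 to 1695 CPM in L + N, 737 to 1067 CPM in H − N and 1146 to 1447 CPM in H + N, and none of the 11 was at 0 in any library. The 6 general leukocyte markers summed to 605 to 1379 CPM in L − N, 651 to 928 CPM in L + N, 552 to 601 CPM in H − N and 678 to 734 CPM in H + N. All 5 smooth muscle markers had negative estimates in each comparison with L − N, with medians of -1.07 in H − N, -1.53 in L + N and -1.10 in H + N, and 2 of them were differentially expressed, both in L + N. Their sum was 5052, 1595 and 1975 CPM in L − N replicates 1, 2 and 3, so replicate 1 stood apart here too. It was 993 to 1214 CPM in L + N, 789 to 1538 CPM in H − N and 1400 to 1464 CPM in H + N. The 3 erythrocyte markers tested were also negative throughout, with medians of -3.48, -3.04 and -1.10, and 1 of them was differentially expressed, in L + N. Their list summed to 753, 63 and 515 CPM in L − N replicates 1, 2 and 3 and to 27 to 293 CPM elsewhere, with HBM at 0 in 3 libraries and AHSP at 0 in 2. By contrast, all 7 neutrophil markers tested had positive estimates in H − N (median 1.57) and L + N (1.63), and 5 of 7 were negative in H + N (-1.54). None passed the test. Their list summed to 13.9, 7.63 and 174 CPM in H − N replicates 1, 2 and 3, beside 9.30, 50.3 and 22.4 CPM in L − N. Only H − N replicate 3 thus lay above all L − N libraries. The 8 markers of T and NK cells divided into 4 lower and 4 higher in H − N. Of 9 epithelial markers, 8 were higher in H − N, 7 in L + N and 6 in H + N against L − N (medians 0.40, 0.25 and 0.04). Of 9 stromal markers, 6, 8 and 7 were higher (medians 0.31, 0.52 and 0.74). Of 6 endothelial markers, 5, 6 and 5 were lower (medians -0.31, -0.42 and -0.29). In whole tissue, fewer cells of a type and less RNA per cell cannot be told apart.

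Over the 12 libraries, the level of NCF4 followed the macrophage markers most closely. Pearson's r between log2 CPM of NCF4 and the mean log2 CPM of the 11 markers was 0.955, Spearman's rho was 0.965, and r was 0.903 without the 2 libraries farthest from the median of the markers. For the deviations from the group means, r was 0.904. The corresponding r for NOX4 was 0.822 over all libraries, with rho of 0.853 and r of 0.833 without the 2 farthest libraries. It was 0.327 for the deviations from group means, so the likeness of NOX4 to these markers lay mainly between groups. In L − N replicate 1, where the macrophage sum was the lowest of its group, NCF4 was at 25.1 CPM, also the lowest of its group, while NOX4 at 50.7 CPM stayed close to the other L − N libraries. These are descriptions over libraries that share diets, and the part of the markers in the subunits' values was not tested.

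**Figure D4:**
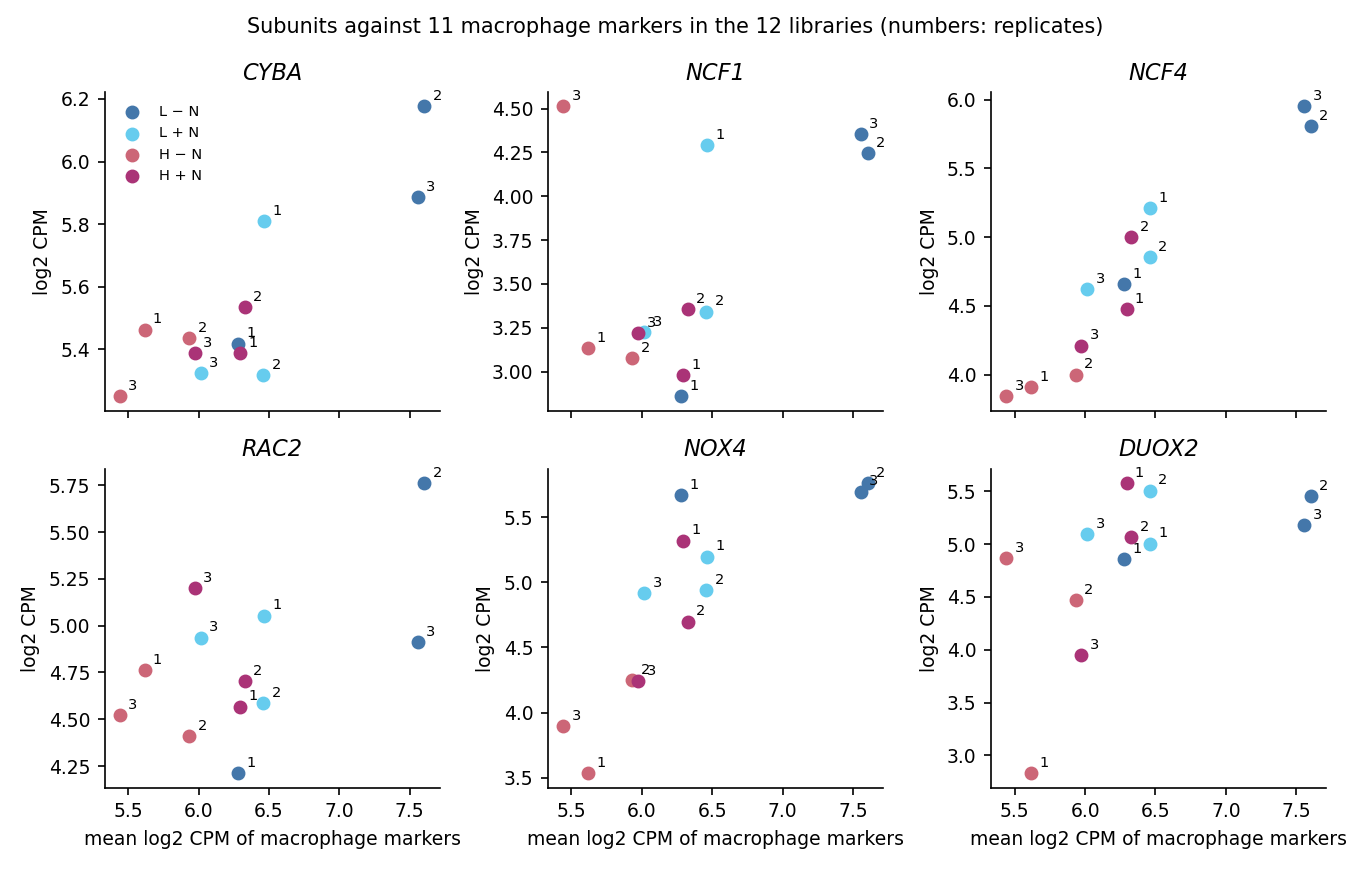
Log2 CPM of each subunit (vertical axis) against the mean log2 CPM of 11 macrophage markers (horizontal axis) in the 12 libraries, coloured by group and numbered by replicate. NCF4 follows the markers with r of 0.955, with L − N replicates 2 and 3 at the upper right, whereas NOX4 is high in all 3 L − N libraries.

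The other subunits differed in the marker list with the highest r, although CYBA, NCF1 and RAC2 all went with the general leukocyte markers. So did NCF4, with r of 0.905 (deviations from group means 0.838, 0.749 without the 2 farthest libraries). CYBA went with the general leukocyte markers (r = 0.895, deviations from group means 0.885), although rho was 0.524 and r fell to 0.646 without the 2 farthest libraries. With the macrophage markers, r of CYBA was 0.850 (deviations 0.789, 0.467 without the 2 farthest). RAC2 went with 8 markers of T and NK cells (r = 0.835, deviations 0.960, 0.622 without the 2 farthest), whose sum was 73 to 219 CPM in L − N and 95 to 168 CPM elsewhere. NCF1 went with the neutrophil markers (r = 0.734, deviations 0.786, 0.475 without the 2 farthest). With the general leukocyte markers, r was 0.790 for RAC2 (deviations 0.809, 0.695 without the 2 farthest). For NCF1 it was 0.658 (deviations 0.788, 0.405 without the 2 farthest). The sum of the neutrophil markers was 174 CPM in H − N replicate 3 and 102 CPM in L + N replicate 1, where NCF1 was at 22.7 and 19.5 CPM, and 6 to 50 CPM in the other 10 libraries. Among these markers MPO was at 0 in 10 libraries and S100A8 and MMP8 were each at 0 in 1. For DUOX2, r was 0.748 with NOX4 (deviations 0.752, 0.529 without the 2 farthest) and -0.299 with the 9 epithelial markers. Among the marker lists its highest r was with the macrophage markers (r = 0.544, rho = 0.692, 0.619 without the 2 farthest, deviations 0.304).

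The genes whose log2 CPM was most like each subunit over the 12 libraries were listed, with 5 genes for each. For CYBA they were TYROBP (r = 0.974), an adaptor of myeloid receptors, CIITA (0.968) and CD74 (0.960) of the MHC class II system, ABHD12 (0.947) and FOLR1 (0.946). For NCF1 they were PLEK (0.930), RHBDF2 (0.924), XPR1 (0.903), SP110 (0.8996) and STK4 (0.896). For NCF4 they were OCA2 (0.975), SLC37A2 (0.971), CARD9 (0.967), SELPLG (0.967) and GIMAP8 (0.965). For RAC2 they were IKZF1 (0.958), a lymphocyte transcription factor, CD37 (0.910), SASH3 (0.899), CYFIP2 (0.891) and TMC8 (0.887). For NOX4 they were ZDHHC2 (0.960), KLF6 (0.953), KIF1B (0.937), ARHGEF6 (0.924) and SPX (0.923). For DUOX2 they were SESTD1 (0.936), CPEB2 (0.897), the angiopoietin receptor TEK (0.893), CLIP1 (0.890) and FNIP1 (0.885). These likenesses were the highest out of all genes, over libraries that share diets.

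Of 12 other oxidase and accessory genes listed, 9 were tested (NOX5, NOXO1, NOXA1, DUOX1, DUOXA1, DUOXA2, RAC1, RAC3 and RAP1A), and none was differentially expressed by edgeR in any comparison. Their median log2 fold change against L − N was 0.36 in H − N, 0.15 in L + N and -0.02 in H + N. RAC1, the widely expressed relative of RAC2, was far more abundant at 381 ± 17.97 CPM in L − N. DUOXA2 had an estimate of 0.36 in H − N, where that of DUOX2 was -0.91, and neither passed the test. NOX3 had no count in any library, which allows up to 3 counts or 0.0152 CPM over all libraries by counting error alone, and NOX1 had 33 counts in all, 26 of them in 1 H − N library. CYBC1 was not analysed here.

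Genes listed for signalling around the phagocyte oxidase had negative estimates throughout the comparisons with L − N, in 23 of 23 genes each time. The share of all genes was 46.5% in H − N, 52.3% in L + N and 48.3% in H + N. The general leukocyte markers were also lower, in 6 of 6 in H − N, 5 of 6 in L + N and 6 of 6 in H + N. The part of leukocyte content in the values of the 23 genes was not tested. The median log2 fold change of these 23 was -0.83 in H − N, -0.43 in L + N and -0.69 in H + N, beside 0.03, -0.02 and 0.02 for all genes. In H − N, 4 of 23 were differentially expressed, all lower, beside 2.01% of all genes. They were ITGAM (-2.27, edgeR adjusted p = 0.0372) and ITGB2 (-1.19, adjusted p = 0.0374), the chains of an integrin of myeloid cells, PLCB2 (-1.95, adjusted p = 0.0279), a phospholipase, and BTK (-1.40, adjusted p = 0.0353), a tyrosine kinase. In L + N and in H + N none of the 23 was. In H − N the calls of ITGAM, ITGB2, PLCB2 and BTK were each lost without L − N replicate 2 (adjusted p from 0.0772 to 0.114), L − N replicate 3 (0.106 to 0.147), H − N replicate 1 (0.0798 to 0.104), H − N replicate 2 (0.0575 to 0.0837) or H − N replicate 3 (0.0773 to 0.0978), and with edgeR on these 2 groups alone (0.0966 to 0.133). ITGAM, ITGB2 and BTK were also lost without L + N replicate 2 or H + N replicate 1, and ITGAM without L + N replicate 1 (adjusted p from 0.0501 to 0.0548).

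**Figure D5:**
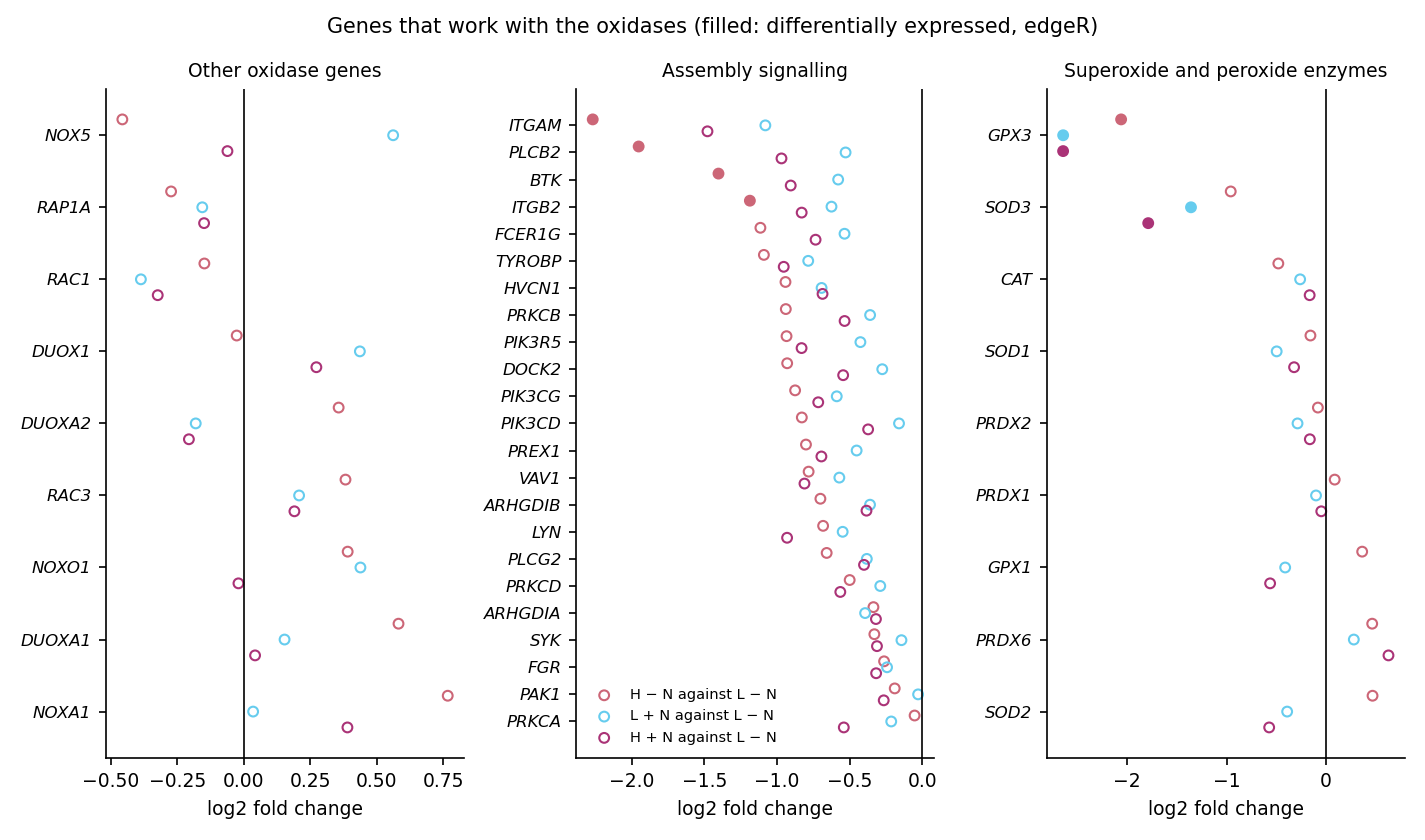
Log2 fold changes against L − N (horizontal axis) of the genes that work with the oxidases, for H − N, L + N and H + N, with filled points for differentially expressed genes by edgeR. All points of the 23 signalling genes lie at or below 0, with ITGAM at -2.27 the lowest, while the other oxidase genes lie on both sides of 0.

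Enzymes that use or remove superoxide and hydrogen peroxide had a negative estimate against L − N in 5 of 9 tested genes in H − N (median -0.08), in 8 of 9 in L + N (median -0.39) and in 8 of 9 in H + N (median -0.32). The shares of all genes were 46.5%, 52.3% and 48.3%, so H − N was near its share. Differentially expressed and lower were 1, 2 and 2 of the 9, beside 2.01%, 0.671% and 1.28% of all genes. GPX3, a secreted glutathione peroxidase, was lower in H − N (-2.06, edgeR adjusted p = 0.0495), L + N (-2.65, adjusted p = 0.0167) and H + N (-2.65, adjusted p = 0.0232) against L − N. SOD3, the extracellular superoxide dismutase, was lower in L + N (-1.36, adjusted p = 0.0486) and H + N (-1.79, adjusted p = 0.0264). Both were also lower in NCG against no NCG, with GPX3 at -1.62 (adjusted p = 0.0280) and SOD3 at -1.09 (adjusted p = 0.0350), where 0.13% of all genes were differentially expressed and lower. Leaving out single libraries ended the GPX3 call in 10 of 12 fits for H − N (all but H + N replicates 2 and 3, adjusted p up to 0.134, and -1.77 with 0.0679 without L − N replicate 1), for L + N without any of the L + N libraries (up to 0.0693), and for H + N without L − N replicate 3 or H + N replicates 1 or 3 (up to 0.0767). It ended that of SOD3 in 8 of 12 fits for L + N (all but H − N replicates 2 and 3 and H + N replicates 2 and 3, up to 0.166, and -0.95 with 0.109 without L − N replicate 1) and in H + N without L − N replicate 3 or H + N replicates 1 or 3 (up to 0.0863). For NCG against no NCG, 5 of 12 fits lost GPX3 (without any L + N library, H − N replicate 2 or H + N replicate 1, up to 0.0706) and 9 lost SOD3 (all but L − N replicate 2, H − N replicate 2 and H + N replicate 2, up to 0.0935, and -0.89 with 0.0549 without L − N replicate 1). With upper quartile scaling the calls of GPX3 in H − N (edgeR adjusted p = 0.0565) and SOD3 in L + N (0.0527) were lost, and with edgeR on 2 groups alone those of GPX3 in H − N (0.0938) and in H + N (0.0884) and of SOD3 in H + N (0.0722). The heme peroxidases that use hydrogen peroxide in defence had few reads, with 4 counts of MPO, 15 of LPO and 13 of EPX over all libraries.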

How the data were processed

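Endometrium RNA of 12 libraries was grouped by the titles given to the libraries. The members, gene lists and marker lists were chosen with earlier results of these data known. The authors deposited whole-number read counts per gene, without normalization, and FPKM values that equal the count divided by gene length and library total to within 1.91e-05 percent. FPKM, as deposited, served only for levels between genes. The submitters' processing notes name fastp 0.22.0, HISAT2 2.1.0, HTSeq 0.9.1 and the build Sscrofa11.1. The libraries were strand-specific by the study's methods, and the strand setting of the counting is not given in the sources used here, so reads of NCF4 and of PVALB inside it may not have been told apart.

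Counts were tested with edgeR 4.0.16 in R 4.3.3 (filterByExpr, TMM scaling, 1 mean per group over all 12 libraries, quasi-likelihood F test, 8 residual degrees of freedom, common biological coefficient of variation 0.269), in place of the DESeq2 of the study. P-values were adjusted by Benjamini-Hochberg over 15351 genes. Differential expression required an adjusted p below 0.05 and an absolute log2 fold change above 1. Log2 CPM used a prior count of 2. Scripts were tested on simulated data. All members, differentially expressed genes of 3 lists and the 5 genes with the highest Pearson r to each member were named. Alternatives were RLE or upper quartile scaling, no filter, no fold threshold, DESeq2 1.42.0, a replicate block, the 2 compared groups alone and each library left out. DESeq2 on the 2 compared groups alone was added after the data were seen. No pair of libraries in a group agreed within sampling noise (chi-square per gene 23.7 to 103). CYBB, CYBC1 and 3 marker genes were not analysed here. Some genes of the lists are not reported here.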

Additional observations from a re-analysis of the deposited data

How the results depend on the processing

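All 30 reversals of a member's sign came from leaving out 1 library, in results that had not passed the test. With 1 library left out, the log2 fold change ranged from -0.86 to 0.023 for NCF1 in H − N against L − N. In L + N against L − N it ranged from -0.53 to 0.27 for RAC2 and from -0.13 to 0.19 for DUOX2. In H + N against L − N it ranged from -0.55 to 0.25 for RAC2 and from -0.58 to 0.16 for DUOX2. In H + N against H − N the range was -0.013 to 0.092 for CYBA and -0.79 to 0.089 for NCF1. In H + N against L + N the ranges were -0.17 to 0.093 for CYBA, -0.24 to 0.073 for RAC2, -0.57 to 0.018 for NOX4 and -0.63 to 0.12 for DUOX2. In NCG against no NCG they were -0.14 to 0.13 for NCF4, -0.12 to 0.27 for RAC2 and -0.057 to 0.22 for NOX4, and for the interaction NCF1 ranged from -0.54 to 0.35.

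The number of members differentially expressed in H − N against L − N went from 2 to 0 with edgeR on the 2 groups alone, where 3 genes in all passed against 446. It ranged from 0 to 2 when 1 library was left out. In H + N against L − N this number went from 0 to between 0 and 1 in those fits, in HF against LF to between 0 and 2, and for the interaction to between 0 and 1. With DESeq2 it was 2 for HF against LF and 1 for the interaction. The causes were not tested. Over all genes, DESeq2 gave 913 genes for H − N, 883 for L + N and 988 for H + N against L − N and 290 for HF against LF, where edgeR gave 446, 613, 549 and 4. In edgeR on 2 groups alone, H + N against L − N gave 87 genes. Scaling by RLE or upper quartiles and no filter on low counts kept the side of the threshold of all member results. DESeq2 on the 2 groups alone, chosen after seeing the data, kept the number of members in all 5 comparisons of groups.

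Replicate numbers were not shown to pair the libraries. Deviations from group means of same-numbered libraries correlated at -0.32 to 0.28 over 18 pairs, 3 of them over 0.1, and 3 of 12 libraries correlated best with their own number. A fit with the replicate number as a block kept NOX4 (-1.80, edgeR adjusted p = 0.0284) and NCF4 (-1.64, adjusted p = 0.0421), 2 members, in H − N against L − N and called 0 elsewhere, while the count over all genes there went from 446 to 254. The block ended the calls of ITGAM (edgeR adjusted p = 0.0597), BTK (0.0597) and ITGB2 (0.0703) for H − N against L − N. It also ended those of SOD3 for L + N against L − N (0.0743) and for NCG against no NCG (0.0637). With 3 libraries a group, intervals of NCF1 and DUOX2 between 2 groups span more than 1 log2 unit to either side of their estimate.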
